A study of Mus musculus with 12 samples.

Results

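CD8.1 T cells of CD8Dual mice, which the labels call 8in4, were compared with CD4+ T cells of C57BL/6 (B6) mice. CD8Dual mice carry altered *Cd4* gene loci that encode the CD8 co-receptor proteins in place of CD4, beside intact *Cd8* loci. T cells that keep CD8 from the altered *Cd4* loci are called CD8.1, and T cells that keep CD8 from the *Cd8* loci are called CD8.2. The members were 6 of the 12 samples, the 3 whose column names carry the CD8.1 tag and the 3 whose names carry the B6 CD4 tag. Both groups were CD62L+ TCRβ+ T cells sorted from lymph nodes (LN) of male mice given as 6-10 weeks old, with no treatment named. B6 CD4 cells were sorted as CD4+ cells and CD8.1 cells by the CD8.1 form of CD8, so the sort itself differed in the co-receptor used. RNA came from pooled sorted cells, and no label says that a sample was a single animal or that samples were processed in named batches. Each P value therefore measures a spread between pools, which was estimated over all 12 samples and may be technical. The study's RNA-seq methods describe the sorted cells as naive and add a CD44- gate, which would remove CD44-high memory cells and which the labels do not name. In bulk RNA fewer cells of a type and less RNA per cell cannot be told apart.

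The co-receptors CD4 and CD8 hold the T cell receptor (TCR) to MHC class II and MHC class I molecules, respectively. In normal mice, thymocytes selected on MHC class II keep CD4 and become helper T cells under the transcription factor ThPOK, which is encoded by *Zbtb7b*, whereas thymocytes selected on MHC class I keep CD8 and become cytotoxic T cells under Runx3. Helper T cells include a regulatory branch that expresses Foxp3 and the high-affinity interleukin-2 (IL-2) receptor and that restrains other T cells. CD8.1 cells therefore pair a helper-type co-receptor locus with selection on MHC class I, and the comparison asks which programs differ from those of CD4+ helper cells.

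Library totals were 20195646 to 23041779 counts in the 6 samples, and 13118 of the 49585 genes passed the filter on low counts. All levels below are depth-normalised counts (CPM, on TMM-scaled library sizes), and all fold changes are CD8.1 over B6 CD4. P values came from the quasi-likelihood test of edgeR and were adjusted by the Benjamini-Hochberg procedure across the genes tested. CD8.1 replicate 1 stood apart, with a median absolute log2 distance of 0.2445 to the other samples of its group, whereas the distance was at most 0.1742 in each of the other 11 samples. Genes of the lowest quintile of GC content were higher by a median of 0.14 log2 units in CD8.1 replicate 1 and lower by 0.077 and 0.079 log2 units in replicates 2 and 3, relative to the B6 CD4 mean. Leaving it out raised the number of calls, and its effect is given below for the results it moved most. *Xist* had no count in any sample, and *Ddx3y* ranged from 35.4 to 47.2 CPM in the 6 samples, in samples labelled male.

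The co-receptor genes matched the labels. *Cd4* was at 1004, 995 and 908 CPM in B6 CD4 cells and at 51.5, 50.6 and 47.2 CPM in CD8.1 cells. The groups were far apart, and CD8.1 cells held 5.13% of the B6 CD4 mean, a 19.5-fold lower level (log2 fold change -4.28 ± 0.11 (SE), adjusted P = 7.0e-13). *Cd8a*, which encodes CD8α, was at 0.682, 1.34 and 1.49 CPM in B6 CD4 cells and at 179, 196 and 201 CPM in CD8.1 cells (log2 fold change 7.35 ± 0.15 (SE), adjusted P = 6.4e-14). It did not overlap between the groups, and the CD8.1 level stayed below the 1423 ± 48.8 CPM (SD, n = 3) of B6 CD8 cells. *Cd8b1*, which encodes CD8β, was at 30.02, 33.8 and 35.6 CPM in B6 CD4 cells and at 157, 216 and 206 CPM in CD8.1 cells, 5.82-fold higher. The table holds 1 *Cd8a* gene and 1 *Cd8b1* gene, both on chromosome 6 (GRCm38), so transcripts of the altered *Cd4* loci and of the *Cd8* loci were summed and cannot be told apart.

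Helper-lineage genes were close to B6 CD4 levels. *Zbtb7b* was at 159, 154 and 164 CPM in B6 CD4 cells and at 117, 173 and 172 CPM in CD8.1 cells, with overlapping groups (log2 fold change -0.04 ± 0.13 (SE), adjusted P = 0.85), whereas its means in B6 CD8 and CD8.2 cells were 0.931 and 1.91 CPM. *Cd40lg*, the ligand with which helper cells activate B cells, was at 108, 110 and 115 CPM in B6 CD4 cells and at 84.8, 88.1 and 94.0 CPM in CD8.1 cells. Every CD8.1 sample was lower (log2 fold change -0.32 ± 0.080 (SE), adjusted P = 0.018), and the call was lost by a small margin without CD8.1 replicate 2 (adjusted P = 0.057). *Runx3* (47.8 to 67.3 CPM against 35.9 to 56.0 CPM, adjusted P = 0.23), *Gata3* (28.6 to 31.7 CPM against 29.98 to 39.4 CPM, adjusted P = 0.089) and *Tbx21* (0.955 to 2.00 CPM against 1.24 to 1.71 CPM, adjusted P = 0.935), further factors of lineage and subset choice, overlapped between the groups. *Gata3* was higher without CD8.1 replicate 1 (adjusted P = 0.0037). Of 16 lineage factors tested, 2 rose (*Eomes* and *Id2*) and 2 fell (*Bcl11b* and *Satb1*), against 6.94% and 5.82% of all genes. Their median log2 fold change was 0.03. *Eomes*, a T-box factor of memory and cytotoxic cells, was at 4.85 to 6.98 CPM in B6 CD4 cells and 7.02 to 13.1 CPM in CD8.1 cells, far below the 86.3 CPM mean of B6 CD8 cells. Its call was lost without B6 CD4 replicate 1 or 3 or CD8.1 replicate 2 or 3 (adjusted P up to 0.175).

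**Figure D1:**
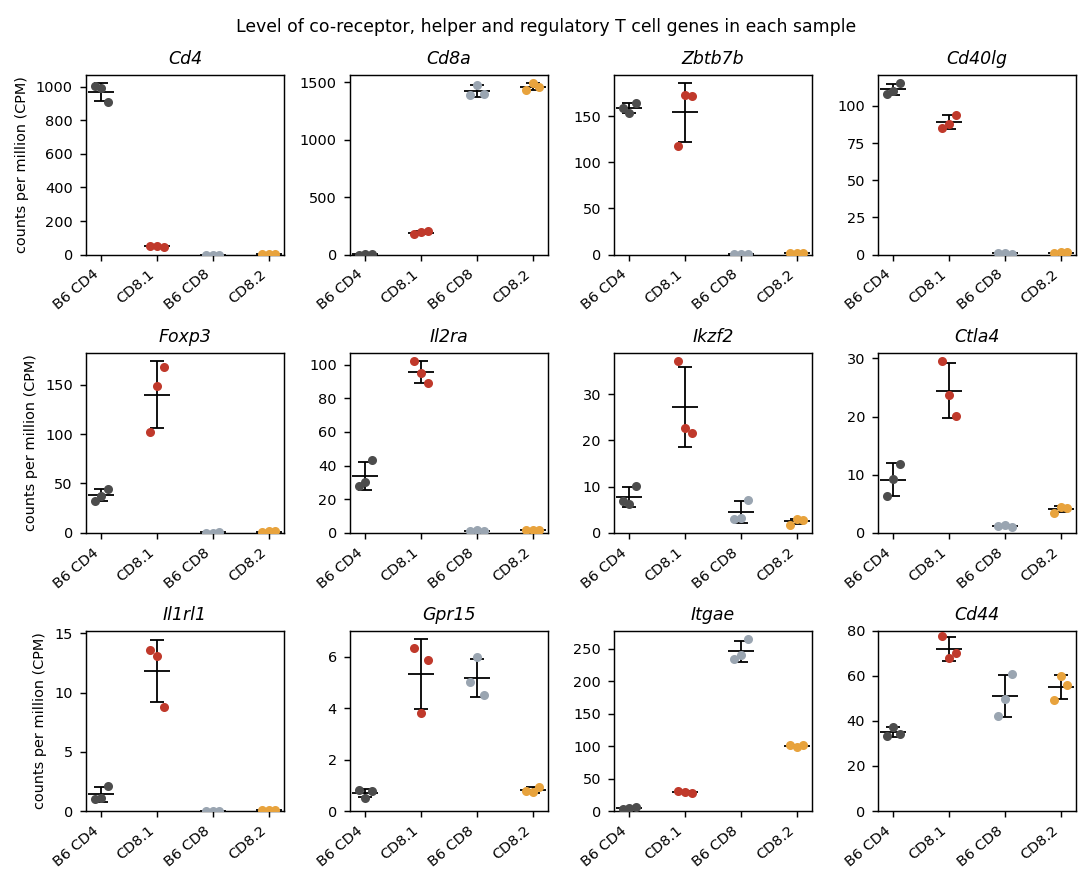
Level in CPM (vertical axes, linear from 0) of 12 genes in each of 12 samples, where points are samples, horizontal bars are group means and error bars are SD (n = 3). CD8.1 samples lie with B6 CD4 samples for *Zbtb7b* and above all B6 CD4 samples for *Foxp3*, *Il2ra*, *Ikzf2*, *Ctla4*, *Il1rl1*, *Gpr15*, *Itgae* and *Cd44*.

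Across the transcriptome, 1674 genes, or 12.8% of those tested, differed at an adjusted P below 0.05. In CD8.1 cells 911 genes (6.94%) were higher and 763 genes (5.82%) were lower. These shares are the background for every count of list members. Most differences were small, with a median absolute log2 fold change of 0.56 among the genes called, and 323 of the higher genes but only 85 of the lower genes passed 2-fold. The definition used by the study, over 5-fold with an unadjusted P below 0.05, gave 55 higher genes (0.419%) and 25 lower genes (0.191%), of which 70 in total also passed the adjusted threshold. Of the 55 higher genes, 47 were protein coding, whereas 10 of the 25 lower genes were. Without CD8.1 replicate 1 the adjusted calls became 1546 higher and 1412 lower, and with only the 6 samples in the fit they became 412 higher and 262 lower.

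**Figure D2:**
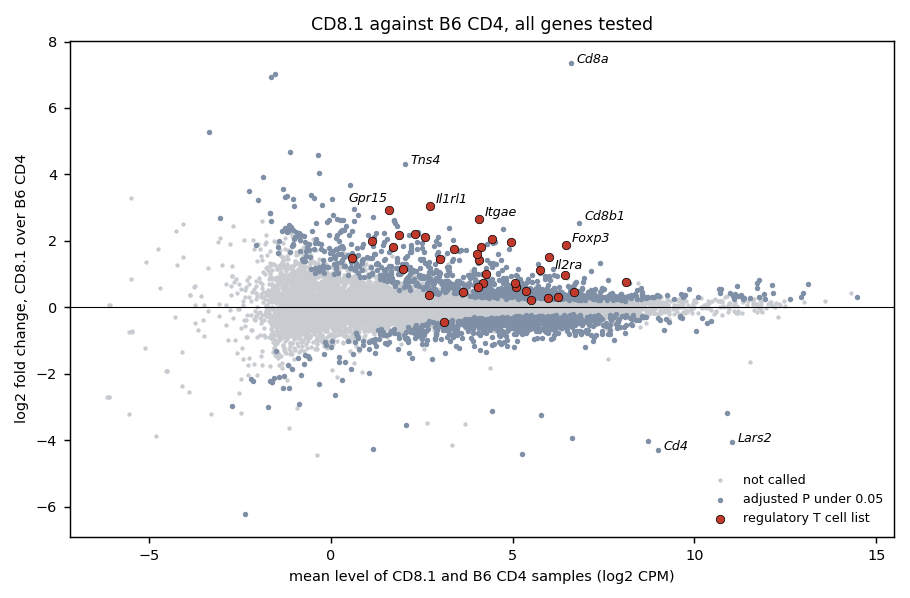
Log2 fold change of CD8.1 over B6 CD4 cells (vertical axis) against the mean level of both groups in log2 CPM (horizontal axis) for the genes tested, with genes at an adjusted P below 0.05 in blue-grey and 35 regulatory T cell genes in red. Of the red points, 34 lie above 0 and 29 were called higher.

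Most regulatory T cell genes were higher in CD8.1 cells. Of 35 genes of the regulatory T cell list that were tested, 29 were higher in CD8.1 cells and 0 were lower, with a median log2 fold change of 1.42, against 6.94% of all genes higher and an all-gene median of 0.00. *Foxp3*, the factor that defines the lineage, was at 32.6, 37.8 and 44.6 CPM in B6 CD4 cells and at 102, 149 and 168 CPM in CD8.1 cells. Every CD8.1 sample was above every B6 CD4 sample, and the level was 3.64-fold higher (log2 fold change 1.87 ± 0.17 (SE), adjusted P = 1.2e-05). B6 CD8 and CD8.2 cells held mean *Foxp3* levels of 0.333 and 1.24 CPM. *Foxp3* shares exonic bases with genes on the other strand, among them *Ccdc22*, and the use of strand in counting is not given in the sources used here, so reads from that overlap cannot be assigned.

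Surface receptors of the regulatory T cell list were also higher in CD8.1 cells. Over CD8.1 replicates 1 to 3, however, *Foxp3* rose while *Il2ra* and *Ctla4* fell. *Il2ra*, which encodes the IL-2 receptor α chain CD25, was at 27.6, 30.05 and 43.2 CPM in B6 CD4 cells and at 102, 95.3 and 89.2 CPM in CD8.1 cells (2.84-fold higher, adjusted P = 1.1e-05). *Ctla4*, the inhibitory receptor that competes for CD80 and CD86, was at 6.28, 9.27 and 11.9 CPM against 29.5, 23.7 and 20.1 CPM (2.67-fold higher, adjusted P = 0.00042). Neither gene overlapped between the groups. *Tigit*, an inhibitory receptor, *Klrg1*, a receptor of differentiated T cells, *Lrrc32*, which holds latent TGF-β at the cell surface, and *Entpd1*, the ATP-degrading enzyme CD39, had log2 fold changes of 1.76, 2.13, 2.07 and 2.21, each called and each above every B6 CD4 sample. *Tnfrsf4*, the costimulatory receptor OX40, rose from 24.1 to 47.7 CPM in B6 CD4 cells to 58.9 to 86.8 CPM in CD8.1 cells, a log2 fold change of 1.11.

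The steepest members of the list were receptors of tissue regulatory T cells. *Il1rl1*, which encodes the IL-33 receptor ST2, was at 1.05, 1.08 and 2.13 CPM in B6 CD4 cells and at 13.6, 13.1 and 8.79 CPM in CD8.1 cells (8.30-fold higher, adjusted P = 2.7e-05). *Gpr15*, a homing receptor for the large intestine, was at 0.819, 0.517 and 0.766 CPM against 6.35, 3.80 and 5.89 CPM (7.58-fold higher, adjusted P = 8.8e-06). *Itgae*, the integrin chain CD103 that binds E-cadherin, was at 2.91, 5.09 and 5.87 CPM against 31.1, 28.5 and 27.6 CPM (6.26-fold higher, adjusted P = 9.1e-08). All 3 genes were well separated between the groups. *Itgae* is also a gene of B6 CD8 cells, where its mean was 246 CPM, so its CD8.1 level lay between those of B6 CD4 and B6 CD8 cells. The *Gpr15* mean was 5.19 CPM in B6 CD8 cells, close to 5.35 CPM in CD8.1 cells, and 0.807 CPM in CD8.2 cells. The rise of *Gpr15* was therefore to the level of B6 CD8 cells. By contrast, *Il1rl1* had means of at most 0.0946 CPM in B6 CD8 and CD8.2 cells. *Ikzf2*, which encodes the regulatory T cell factor Helios, was at 6.78, 6.25 and 10.2 CPM against 37.2, 22.7 and 21.6 CPM (log2 fold change 1.81 ± 0.29 (SE), adjusted P = 0.0014).

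The 6 members that were not called were *Gpr83*, *Prdm1*, *Swap70*, *Lad1*, *Arl5a* and *Ccr8*, and *Ccr8* alone had a negative log2 fold change. Leaving out each of the 6 samples in turn left 24 to 31 members higher and 0 lower, and without CD8.1 replicate 1 the count was 28. Removing per-sample trends on GC content and length left 31 members higher. B cell and myeloid genes were also higher in CD8.1 samples, as described with MHC class II below, and their part in these counts was not tested. *Foxp3*, *Il2ra* and *Ctla4* had means of at most 4.04 CPM in B6 CD8 and CD8.2 cells.

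Promoters of 4 genes that rose in CD8.1 cells are shown as examples of windows that hold the searched letters, in genes whose products mark or follow the IL-2 and tissue regulatory T cell programs: *Foxp3*, the ST2 gene *Il1rl1*, *Gpr15* and *Cish*, a feedback inhibitor that STAT5 induces downstream of the IL-2 receptor. Each is 300 bases from RefSeq on GRCm38.p6, 250 before to 50 after a gene start, written 5′ to 3′ on the gene's strand. Capitals mark letters that match 1 of 6 motifs on either strand, which were TTCNNNGAA (STAT), TGTTTAC (forkhead), TGANTCA (AP-1), the NF-kB motif, TGTGGT (Runx) and CCGGAAGT (ETS).
Foxp3, chrX:7580233-7580532, plus strand: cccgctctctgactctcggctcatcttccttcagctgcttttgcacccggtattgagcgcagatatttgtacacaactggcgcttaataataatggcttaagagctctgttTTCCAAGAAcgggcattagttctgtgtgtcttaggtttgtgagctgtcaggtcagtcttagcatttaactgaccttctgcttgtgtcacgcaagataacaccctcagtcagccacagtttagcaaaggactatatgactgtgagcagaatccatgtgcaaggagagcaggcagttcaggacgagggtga
Il1rl1, chr1:40439379-40439678, plus strand: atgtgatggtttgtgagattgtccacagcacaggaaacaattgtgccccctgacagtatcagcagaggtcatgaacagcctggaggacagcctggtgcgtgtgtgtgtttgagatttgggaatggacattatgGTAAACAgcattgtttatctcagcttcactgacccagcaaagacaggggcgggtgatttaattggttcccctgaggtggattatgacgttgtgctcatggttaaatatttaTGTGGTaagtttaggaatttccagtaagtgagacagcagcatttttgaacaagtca
Gpr15, chr16:58718823-58719122, minus strand: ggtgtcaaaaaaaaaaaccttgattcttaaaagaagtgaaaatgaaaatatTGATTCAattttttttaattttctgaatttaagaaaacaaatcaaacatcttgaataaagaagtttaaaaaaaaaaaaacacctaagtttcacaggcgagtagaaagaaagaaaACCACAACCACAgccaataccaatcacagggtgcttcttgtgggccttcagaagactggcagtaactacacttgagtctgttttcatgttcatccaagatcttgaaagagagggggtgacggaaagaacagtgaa
Cish, chr9:107296409-107296708, plus strand: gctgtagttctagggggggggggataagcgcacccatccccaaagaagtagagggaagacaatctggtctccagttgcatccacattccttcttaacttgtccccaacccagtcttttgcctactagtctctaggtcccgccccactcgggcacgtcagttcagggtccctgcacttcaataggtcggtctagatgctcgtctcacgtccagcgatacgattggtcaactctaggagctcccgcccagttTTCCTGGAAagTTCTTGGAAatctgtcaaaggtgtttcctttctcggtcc

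The STAT letters occurred once in the *Foxp3* window and 2 times, 2 bases apart, in the *Cish* window. A forkhead match and a Runx match lay in the *Il1rl1* window, and an AP-1 match and 2 Runx matches lay in the *Gpr15* window. The windows were chosen after the search. The other start of *Foxp3* and of *Il1rl1*, and the windows of *Il2ra* and *Ctla4*, held none of the 6 motifs and are not printed. Of the regulatory T cell list, 25 genes had a promoter in the RefSeq table, and 5 of them (20%) held the STAT letters, 8 (32%) the Runx letters, 3 (12%) the forkhead letters and 3 (12%) the AP-1 letters. The 25 genes include members that were not called, among them *Prdm1* (forkhead and AP-1 letters) and *Swap70* (forkhead and Runx letters). Among the 602 genes called higher that had such a window, the shares were 9.8%, 21.3%, 3.82% and 6.98%. Among all 8871 genes tested that had such a window, the shares were 8.27%, 15.3%, 3.10% and 5.65%, and among all 32817 windows 8.29%, 16.8%, 3.65% and 7.81%. No window of the list held the NF-kB or ETS letters, which 0.462% and 9.92% of genes tested did. Genes with several starts counted once if any window matched, and a match describes letters only, not a bound site.

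Several cytokine receptor genes were higher, among them genes of the IL-2, IL-9 and IL-33 receptors, and the IL-6 receptor α chain gene was lower. Receptor genes for IL-1, IL-18, IL-25 and interferons were also among the higher members. Of 41 genes of cytokine receptors and their signalling, 12 (29.3%) were higher and 2 (4.88%) lower, against 6.94% and 5.82% of all genes. The median log2 fold change was 0.10. *Il2rb*, the β chain shared by the IL-2 and IL-15 receptors, was at 83.5, 91.0 and 111 CPM in B6 CD4 cells and at 246, 257 and 223 CPM in CD8.1 cells (log2 fold change 1.35 ± 0.096 (SE), adjusted P = 8.9e-07). *Cish* was at 16.4, 15.6 and 17.3 CPM against 26.1, 29.0 and 26.8 CPM (log2 fold change 0.73 ± 0.12 (SE), adjusted P = 0.00145). Both were above every B6 CD4 sample, while the shared γ chain gene *Il2rg* had a log2 fold change of 0.29 and was not called. *Il9r*, the IL-9 receptor gene, was at 0.773 to 1.49 CPM against 3.89 to 7.06 CPM, 5.49-fold higher. *Il6ra*, the IL-6 receptor α chain, was at 329, 309 and 244 CPM in B6 CD4 cells and at 143, 144 and 163 CPM in CD8.1 cells, 1.96-fold lower (log2 fold change -0.97 ± 0.12 (SE), adjusted P = 0.00012). *Bcl2*, a survival gene kept high by IL-7, fell by 0.47 on the log2 scale (103 to 114 CPM against 66.4 to 97.7 CPM, adjusted P = 0.012), and the call was lost without B6 CD4 replicate 1 or CD8.1 replicate 2 (adjusted P = 0.058 for each).

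Most chemokine and related migration receptors were higher. Of 16 tested, 11 were higher and 0 lower, against 6.94% of all genes higher, with a median log2 fold change of 1.38. *Ccr2*, a receptor of inflammatory homing, was at 1.91, 4.14 and 3.19 CPM in B6 CD4 cells and at 23.8, 13.8 and 10.6 CPM in CD8.1 cells (log2 fold change 2.38 ± 0.31 (SE), adjusted P = 0.00025). *Cxcr6*, a receptor of tissue-resident T cells, was at 2.64 to 3.02 CPM against 10.3 to 16.5 CPM (log2 fold change 2.11, adjusted P = 3.6e-06). Neither overlapped between the groups. *Ccr4* (skin homing), *Ccr6* (mucosal and Th17 homing) and *Ccr9* (small intestine homing) had log2 fold changes of 1.90, 1.84 and 1.94, and *Cxcr5*, which leads cells into B cell follicles, rose from 11.5 to 12.6 CPM to 27.7 to 32.0 CPM. *Ccr7*, the receptor that keeps naive cells in lymph nodes, was at 736, 784 and 766 CPM against 765, 754 and 763 CPM and was not called. Of 17 integrin genes, 4 rose and *Itgb3* fell, against 6.94% and 5.82% of all genes. The 4 were *Itgae*, *Itga2*, *Itgb1* and *Itgb8*, the last of which encodes a chain that activates latent TGF-β.

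Genes of activated and memory T cells were also higher. Of 21 S100, annexin, galectin and related genes, 15 were higher and 0 lower, against 6.94% of all genes higher. Across the 21 genes the median log2 fold change was 0.93. *S100a6*, a calcium-binding protein raised in activated cells, was at 5.91, 8.75 and 11.1 CPM in B6 CD4 cells and at 48.6, 49.4 and 34.8 CPM in CD8.1 cells, 5.13-fold higher (adjusted P = 3.6e-06). *Cd44*, the hyaluronan receptor by which memory cells are gated, was at 33.4, 37.5 and 34.2 CPM against 77.8, 67.9 and 70.3 CPM, 2.05-fold higher (adjusted P = 8.0e-05). Neither gene overlapped between the groups. The methods of the study give a CD44- gate for these sorts, and the labels name none. Of 22 genes of memory and innate memory cells, 12 were higher and 3 lower, against 6.94% and 5.82% of all genes. The median log2 fold change of the 22 was 1.11. *Cxcr3*, a receptor for interferon-induced chemokines, rose from 3.91 to 6.68 CPM to 13.3 to 17.0 CPM, and *Ly6c2*, a surface protein of memory CD8 cells, from 3.55 to 4.64 CPM to 14.2 to 19.3 CPM. The Ly6 genes differed in direction, since *Ly6a* (Sca-1) was 1.73-fold lower, at 248 to 257 CPM in B6 CD4 cells against 126 to 159 CPM in CD8.1 cells, and *Ly6c1* fell by 0.48 on the log2 scale. *Ly6c1* and *Ly6c2* are near-identical copies, so reads could be split between them.

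Naive T cell genes moved in both directions. Of 20 genes 5 were lower and 2 higher, against 5.82% and 6.94% of all genes, and the lower count was 2 to 6 when each sample was left out, with 2 without B6 CD4 replicate 1 or CD8.1 replicate 2. *Klf2* (378 to 407 CPM against 391 to 542 CPM) and *S1pr1* (788 to 852 CPM against 848 to 998 CPM), which together govern exit from lymph nodes, were not called with all samples and were higher without CD8.1 replicate 1 (adjusted P = 0.0017 and 0.017). The genes that fell were *Foxp1*, *Foxo1*, *Bach2*, *Satb1* and *Igfbp4*, and those that rose were *Ccr9* and *Tob1*. The transcription factors that fell are known to hold T cells in a quiescent or naive state, and *Bach2*, for example, was at 87.2 to 110 CPM against 64.1 to 76.9 CPM. After removal of length and GC trends the falls of *Satb1* and *Foxp1* no longer passed (adjusted P = 0.27 and 0.072).

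TCR signalling genes showed small differences, with some members of each list called. *Cd5* and *Nr4a1*, whose levels follow the strength of TCR signals, overlapped between the groups, at 478 to 529 CPM against 380 to 487 CPM for *Cd5* (adjusted P = 0.24) and at 42.8 to 79.4 CPM against 53.2 to 72.6 CPM for *Nr4a1* (adjusted P = 0.72). Of 24 genes of TCR signal strength, 5 were higher and 0 lower, against 6.94% of all genes higher, with a median log2 fold change of 0.18, and 3 of these 5 (*Tnfrsf9*, *Izumo1r* and *Nt5e*) also belong to the regulatory T cell list. *Spry1*, a feedback inhibitor of receptor signalling, rose from 2.09 to 2.50 CPM to 4.96 to 5.18 CPM. None of 7 CD3 and TCR constant genes was called, and *Cd3e* was at 310 to 324 CPM against 269 to 358 CPM. Of these 7 genes, 2 were higher and 2 lower without CD8.1 replicate 1, by edgeR. Among 29 kinases, adaptors and phosphatases at the TCR, 0 rose and 7 fell, against 5.82% of all genes lower, with a median log2 fold change of -0.10, including *Plcg1*, *Ptprc*, *Rasgrp1* and *Dgka* with log2 fold changes of -0.49, -0.48, -0.37 and -0.36. The count of lower members was 3 to 9 when each sample was left out, 1 with only the 6 samples in the fit and 5 after removal of length and GC trends, with *Ptprc* then at an adjusted P of 0.059.

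Helper subset genes moved upward with the homing receptors. Of 16 genes of Th1, Th2 and Th17 cells, 9 were higher and 0 lower, against 6.94% of all genes higher. The median log2 fold change was 0.95, and 4 of the 9 were the chemokine receptors and ST2 named above. *Rora*, a factor of Th17 and Th2 cells, was at 5.95 to 6.38 CPM against 9.64 to 16.9 CPM, a log2 fold change of 0.99. Of 13 follicular helper genes, 6 were higher, against 6.94% of all genes. Among the 6 were *Cxcr5*, *Icos*, a costimulatory receptor (16.4 to 23.9 CPM against 28.3 to 37.6 CPM), and *Tox2*. The *Tox2* call was lost without B6 CD4 replicate 1, 2 or 3 or CD8.1 replicate 2 or 3 (adjusted P up to 0.175). *Bcl6*, the factor of that subset, had a log2 fold change of 0.14 and was not called. Of 11 genes of helper function, *Icos*, *Cd28* and *Slamf6* rose and *Cd40lg* and *Il6ra* fell, against 6.94% and 5.82% of all genes.

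A few cytotoxic genes were raised from low levels. Of 14 granule genes, 5 were higher and 0 lower, against 6.94% of all genes higher, with a median log2 fold change of 0.26. *Gzmb*, the protease granzyme B, was at 0.455, 1.25 and 1.02 CPM in B6 CD4 cells and at 6.97, 5.13 and 5.08 CPM in CD8.1 cells (6.24-fold higher, adjusted P = 0.00023), above its mean of 1.64 CPM in B6 CD8 cells. *Nkg7*, a granule membrane protein, was at 2.03 to 4.68 CPM against 7.22 to 9.64 CPM, and *Cst7* at 9.31 to 11.8 CPM against 22.6 to 32.1 CPM. CD8.1 samples were above B6 CD4 samples in each case, while the B6 CD8 means were 525 CPM for *Nkg7* and 113 CPM for *Cst7*. *Prf1*, which encodes perforin, was at 32.96 to 61.9 CPM against 36.9 to 49.6 CPM and was not called. Of 15 killer lectin-like receptors tested, 4 were higher and 1 lower, against 6.94% and 5.82% of all genes. However, *Klra1*, *Klra3* and *Klre1* stayed below 0.8 CPM in each CD8.1 sample. *Klrd1* (CD94) fell from 10.4 to 10.7 CPM to 4.796 to 9.55 CPM. Its call was lost without B6 CD4 replicate 1 or 2 or CD8.1 replicate 2 or 3 (adjusted P up to 0.113).

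Genes of innate-like T cells were low. *Tcrg-C1*, *Tcrg-C2* and *Tcrg-C4*, constant genes of the TCR γ chain, rose from at most 0.474 CPM in B6 CD4 cells to 1.15 to 2.39 CPM in CD8.1 cells, with log2 fold changes of 2.34, 2.66 and 3.09, and near-identical sequence among them leaves their shares uncertain. *Trdc*, the constant gene of the TCR δ chain, was at 10.4 to 11.5 CPM against 11.98 to 12.8 CPM (adjusted P = 0.29). *Zbtb16*, which encodes PLZF, the factor of natural killer T (NKT) cells, was not tested after the filter, with 0 counts in all 3 B6 CD4 samples, which allows up to 0.142 CPM in the shallowest, and 4, 23 and 12 counts in the CD8.1 samples. The NK marker *Ncr1* was at most 0.345 CPM in the 6 samples.

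The antigen receptor repertoire differed by V segment. Of 22 TCR β V segments tested, 6 were used more and 3 less in CD8.1 cells, against 6.94% and 5.82% of all genes. Their summed level was 815 to 968 CPM in B6 CD4 cells and 912 to 1000 CPM in CD8.1 cells. *Trbv12-1* was at 9.51, 12.6 and 13.8 CPM in B6 CD4 cells and at 43.6, 34.2 and 31.5 CPM in CD8.1 cells, 3.04-fold higher (log2 fold change 1.61 ± 0.14 (SE), adjusted P = 6.4e-06). As a share of all V beta counts it was 1.31% ± 0.13 (SD, n = 3) in B6 CD4 cells, 3.82% ± 0.66 in CD8.1 cells, 6.15% ± 0.49 in B6 CD8 cells and 6.78% to 7.23% in the 3 CD8.2 samples. The CD8.1 share therefore lay between the shares of the CD4 and CD8 cells of B6 mice, and this order also held for the group means of *Trbv12-2*, *Trbv14*, *Trbv17* and *Trbv29*. *Trbv20* fell from 4.02% ± 0.39 (SD, n = 3) in B6 CD4 cells to 2.36% ± 0.15 in CD8.1 cells, beside 2.005% ± 0.16 in B6 CD8 cells. *Trbv1* and *Trbv26* were lower as well and *Trbv13-1* was higher, with a mean share above those of both B6 groups. *Trbv12-1* and *Trbv12-2* share 88.8% of their bases, so some reads may be divided between them.

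**Figure D3:**
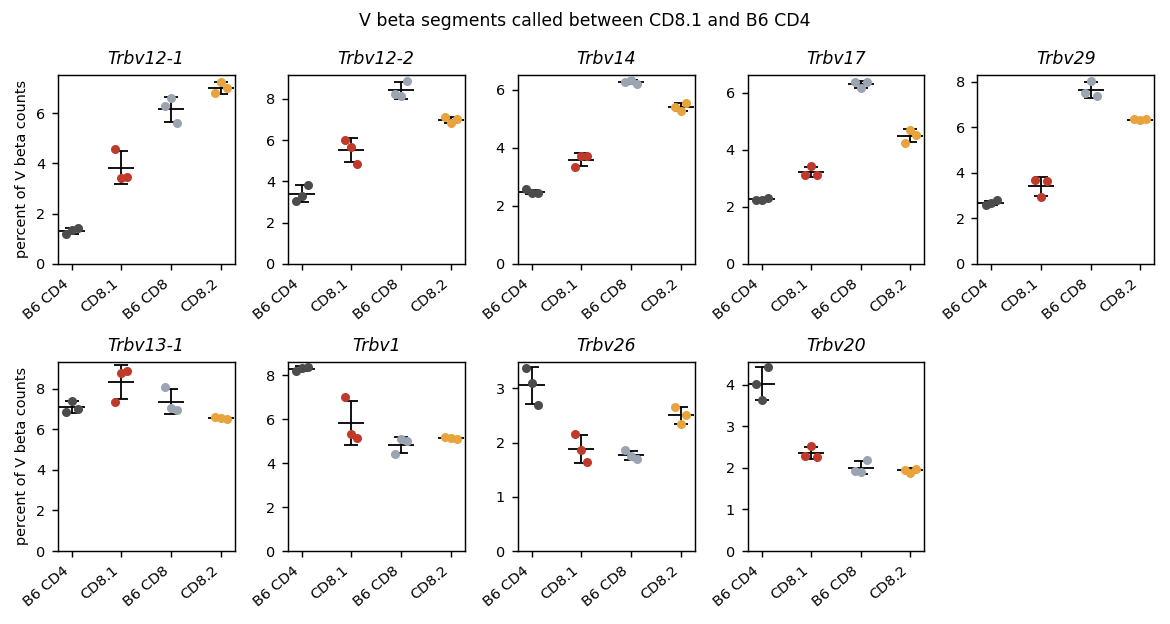
Share of all V beta counts (vertical axes, percent, linear from 0) of the 9 V beta segments called between CD8.1 and B6 CD4 cells, where points are samples, horizontal bars are means and error bars are SD (n = 3). For *Trbv12-1*, *Trbv12-2*, *Trbv14*, *Trbv17* and *Trbv29* the CD8.1 means lie between those of B6 CD4 and B6 CD8 cells.

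TCR α V segments were lower on balance. Of 66 tested, 3 were higher and 16 lower, against 6.94% and 5.82% of all genes, with a median log2 fold change of -0.35. Their summed level was 302 to 327 CPM in B6 CD4 cells and 233 to 255 CPM in CD8.1 cells. The 3 that rose, *Trav16*, *Trav16n* and *Trav16d-dv11*, are copies of 1 segment family, and *Trav16n* was at 4.96, 6.08 and 5.44 CPM against 9.50, 13.1 and 15.8 CPM. *Trav14-2* fell from 14.5 to 15.5 CPM to 6.10 to 7.69 CPM (log2 fold change -1.16 ± 0.13 (SE), adjusted P = 8.0e-05). Many mouse α segments exist as near-identical copies, so values of single segments are uncertain.

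Costimulatory genes of the TNF families were raised in part. Of 26 ligands and receptors, 8 rose and 1 fell, against 6.94% and 5.82% of all genes, with a median log2 fold change of 0.23, among them *Tnfsf14*, the costimulatory ligand LIGHT, at 1.18 and *Tnfrsf13c*, the receptor for the B cell survival factor BAFF, at 0.90. The higher count was 3 to 10 when each sample was left out, with at most 4 without B6 CD4 replicate 1 or 2 or CD8.1 replicate 2. The lists that follow have few calls, several near the background shares, and NF-kB and survival genes had 5 and 4 higher members without CD8.1 replicate 1. Of 22 NF-kB genes 1 rose and 3 fell, namely *Traf3*, *Ikbkb* and *Map3k14*, with log2 fold changes of -0.52, -0.61 and -0.50. Of 12 inhibitory receptors 3 rose, and of 16 survival and death genes 1 rose, *Pmaip1*, which encodes the pro-apoptotic protein Noxa (log2 fold change 1.29), and 1 fell. Of 17 genes of the TGF-β pathway 1 rose and 2 fell, including *Tgfbr3*, a TGF-β co-receptor, at -0.76. Of 8 Gimap GTPases 1 rose, and of 6 stromal and erythroid genes 1 fell, the endothelial gene *Pecam1* at -0.36.

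Interferon-stimulated genes were lower. Of 57 tested, 14 fell and 1 rose, against 5.82% and 6.94% of all genes, with a median log2 fold change of -0.25. *Oas2*, a sensor of double-stranded RNA, was at 5.28, 4.91 and 4.93 CPM in B6 CD4 cells and at 2.39, 2.48 and 1.47 CPM in CD8.1 cells, and *Isg15*, a ubiquitin-like modifier, at 30.2 to 58.2 CPM against 17.5 to 28.3 CPM. Both were lower in every CD8.1 sample, and the number of lower members was 7 to 18 when each sample was left out. *Gbp3*, a guanylate-binding protein, was the 1 member that rose, from 8.96 to 12.7 CPM to 21.1 to 24.3 CPM. Cell cycle genes leaned upward, with 10 of 40 higher, against 6.94% of all genes, and a median log2 fold change of 0.54. The mitotic genes *Ube2c*, *Aurkb*, *Ccnb2* and *Plk1* led. *Mki67* was at 5.22 to 8.51 CPM against 6.11 to 11.3 CPM and was not called. The count of cell cycle members was 2 to 12 when each sample was left out, and *Ube2c* was not called without CD8.1 replicate 1 (adjusted P = 0.061).

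Immediate early genes moved in both directions. *Fos*, an AP-1 subunit, was at 8.28, 7.59 and 9.53 CPM in B6 CD4 cells and at 4.20, 3.89 and 3.70 CPM in CD8.1 cells, 2.15-fold lower. *Junb*, *Dusp1*, *Klf6*, *Dnajb1* and *Ier5* rose with log2 fold changes of 0.24 to 0.79. In all, 5 of 15 genes were higher and 1 lower, against 6.94% and 5.82% of all genes. The higher count was 1 to 8 when each sample was left out and 2 with only the 6 samples in the fit. *Junb* and *Dnajb1* lost their call without B6 CD4 replicate 1 or 2 or CD8.1 replicate 2.

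Transcripts of the mitochondrial genome were higher, whereas those of cytosolic ribosomal proteins differed by small amounts. Of 78 cytosolic ribosomal protein genes, 16 rose and 0 fell, against 6.94% of all genes higher, with a median log2 fold change of 0.09. The ribosomal count depended on single samples, from 1 to 29 higher when each was left out, and without CD8.1 replicate 1 it became 29 higher and 8 lower. Of 13 genes of the mitochondrial genome, 7 rose and 0 fell, against 6.94% of all genes higher. Their median log2 fold change was 0.52. When each sample was left out 3 to 6 were higher, with at most 4 without B6 CD4 replicate 1 or 2 or CD8.1 replicate 2. Their summed level was 29980 to 36727 CPM in B6 CD4 cells and 46332 to 55443 CPM in CD8.1 cells, and *mt-Nd5*, a subunit of respiratory complex I, was at 2802, 2250 and 2522 CPM against 3824, 4686 and 4985 CPM. Of 90 nuclear genes of the respiratory chain, 2 (2.22%) were higher and 4 (4.44%) lower, below the 6.94% and 5.82% of all genes. Their median log2 fold change was 0.00, and without CD8.1 replicate 1 the counts became 14 higher and 14 lower. Glycolysis had 2 of 24 genes (8.33%) higher and 1 (4.17%) lower, near the shares of all genes. Sterol and fatty acid synthesis had 5 of 35 (14.3%) higher and 1 (2.86%) lower. These higher counts ranged from 0 to 4 and from 0 to 7 when each sample was left out. *Scd1*, the fatty acid desaturase, rose from 11.3 to 12.9 CPM to 16.8 to 27.8 CPM.

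MHC class II genes rose together with B cell genes. *Cd74*, the invariant chain, was at 135, 131 and 163 CPM in B6 CD4 cells and at 269, 300 and 194 CPM in CD8.1 cells, and *H2-Aa*, *H2-Ab1* and *H2-Eb1* had log2 fold changes of 0.77 to 0.85. Without CD8.1 replicate 1 the adjusted P of *H2-Ab1* was 0.052. The B cell list, which holds these 4 genes, had 11 of 20 members higher and 0 lower, against 6.94% of all genes higher. Its median log2 fold change was 0.80, with 3 to 14 higher when each sample was left out. That count was at most 4 without B6 CD4 replicate 1 or 2 or CD8.1 replicate 2. The summed level of the list was 916 to 1013 CPM in B6 CD4 cells and 1233 to 1671 CPM in CD8.1 cells. None of its defining markers was at 0, with *Cd79a* at 21.7 to 27.8 CPM against 35.8 to 55.5 CPM and *Ms4a1* at 14.4 to 17.6 CPM against 16.6 to 36.5 CPM. The myeloid and dendritic list had 5 of 10 members higher and 0 lower, against 6.94% of all genes higher. It had 1 to 5 higher when each sample was left out, with at most 3 without the same samples. Its summed level was 344 to 403 CPM against 424 to 456 CPM. The macrophage genes *Lyz2* and *Csf1r* rose to 10.1 to 14.1 CPM and 0.807 to 1.34 CPM. Of the defining markers of the list none was at 0, and *Itgax* was at most 0.553 CPM in the 6 samples. CD8.2 cells differed from B6 CD8 cells in the same way for the B cell list, with 9 of 20 higher and a median log2 fold change of 0.84, whereas the regulatory T cell list had 4 higher and 4 lower there. In that contrast 7.94% of all genes were called in either direction. The part of B cell or myeloid RNA in the other results was not tested.

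The strongest falls other than *Cd4* were in a set of transcripts that includes short RNA genes. *Lars2*, which encodes a mitochondrial leucyl-tRNA synthetase, was at 4711, 3764 and 3352 CPM in B6 CD4 cells and at 370, 121 and 214 CPM in CD8.1 cells, 16.8-fold lower (log2 fold change -4.07 ± 0.65 (SE), adjusted P = 0.0014). The groups did not overlap, but in CD8.2 cells the same gene ranged from 897 to 6735 CPM. The annotated short RNA genes *Gm23935* and *Mir6236*, named here after their values were seen, were lower as well, at 2761 to 4436 CPM against 286 to 558 CPM and at 682 to 884 CPM against 29.9 to 60.7 CPM. Their log2 fold changes were -3.18 and -4.01, and that of the antisense gene *Gm15564*, named in the same way, was -3.93. The origin of the reads counted at *Lars2* was not tested, so its values are not taken as a level of the synthetase mRNA. Of the 25 genes lower by the study definition, 6 were annotated as miRNA, 2 as ribozyme, 1 as misc_RNA and 1 as snoRNA. Among protein-coding genes the next largest falls that met the level rule were *Mrvi1*, *Rpl10-ps3*, *Adamts14*, *Ktn1*, *Gcc2*, *Myo10*, *Nacc2* and *Bsn*, with log2 fold changes of -1.87 to -1.27.

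**Figure D4:**
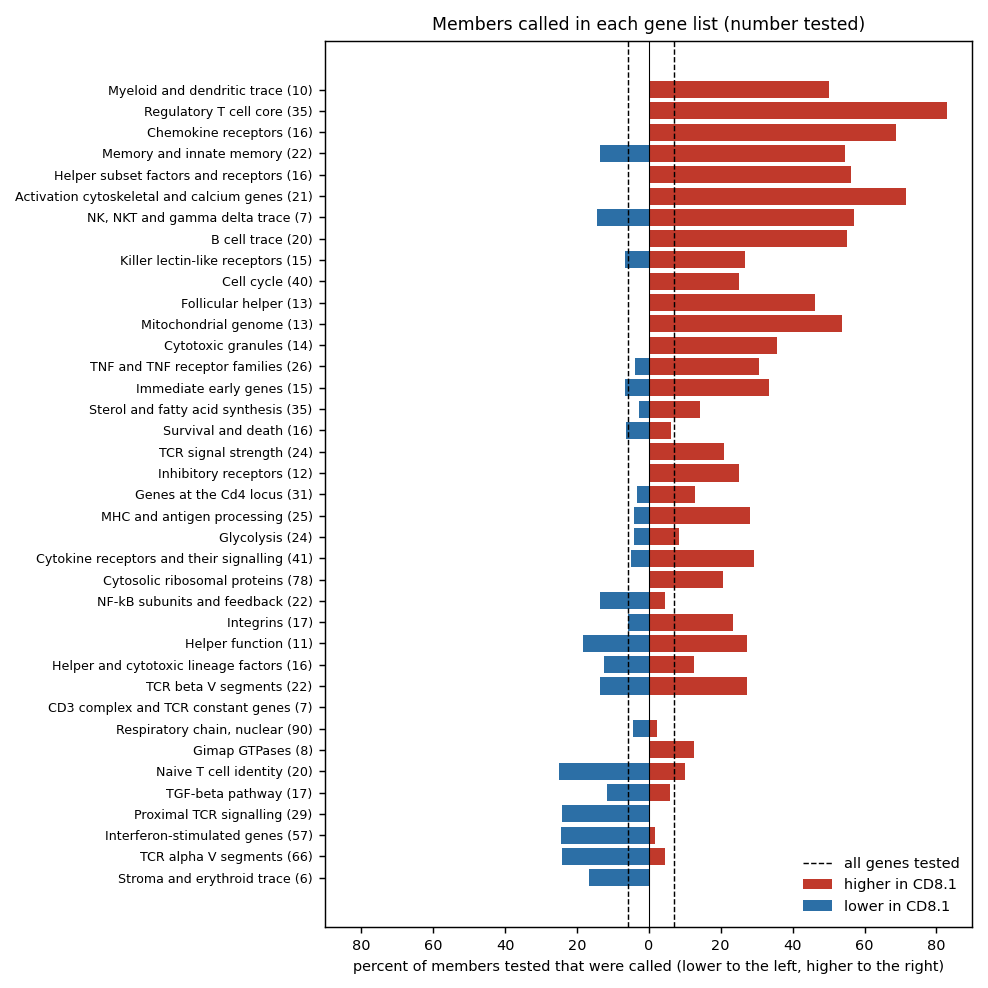
Percent of the tested members of 38 gene lists that were higher (red, right) or lower (blue, left) in CD8.1 than in B6 CD4 cells at an adjusted P below 0.05, ordered by median log2 fold change, with the number tested in parentheses and dashed lines at 6.94% and 5.82% for all genes. The regulatory T cell list has 29 of 35 members higher, and the interferon list 14 of 57 lower.

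Call shares and median fold changes varied with transcript length. In the quintile of genes with the longest exonic sequence (median 9294 bases), 13.1% were lower and 3.89% higher in CD8.1 cells, whereas in the shortest quintile (median 819 bases) 3.47% were lower and 8.82% higher. The median log2 fold change was -0.089 and 0.055 in these quintiles. After removal of per-sample trends on length and GC content, 1234 genes were higher and 860 lower, and the part of length in single genes was otherwise not tested. B6 CD4 replicate 1 stood apart from the other B6 CD4 samples in this trend, with long genes higher by 0.094 log2 units. The shift of long genes in B6 CD4 replicate 3 was -0.073, within the CD8.1 range of -0.119 to -0.071. Samples of both groups therefore overlapped in this shift.

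**Figure D5:**
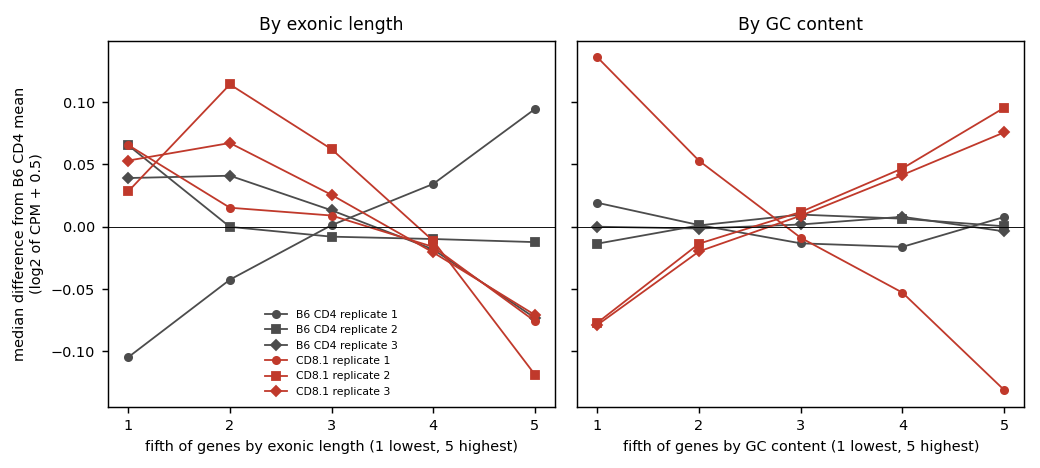
Median log2 difference of each of 6 samples from the B6 CD4 mean (vertical axis, log2 of CPM + 0.5) over quintiles of genes by exonic length (left) and by GC content of the transcript (right), with B6 CD4 in grey, CD8.1 in red and symbols for replicates. CD8.1 replicate 1 falls from 0.14 to -0.13 over GC quintiles, against rises in CD8.1 replicates 2 and 3, and B6 CD4 replicate 1 rises over length quintiles.

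Genes of large fold change outside the lists included several of low level. *Tns4*, an adaptor of the tensin family at cell adhesions, was at 0.318, 0.690 and 0.170 CPM in B6 CD4 cells and at 6.16, 8.27 and 9.31 CPM in CD8.1 cells, 19.9-fold higher (adjusted P = 1.2e-05). All 3 CD8.1 samples were above all samples of the other groups, whose means were at most 0.393 CPM. *Ptpn5*, a tyrosine phosphatase, *Fam129b* and *Rbpms*, an RNA-binding protein, had log2 fold changes of 3.68, 2.78 and 2.73 and CD8.1 levels of 1.66 to 5.03 CPM. *Ccr3* rose from 0.136 to 0.474 CPM to 2.52 to 2.96 CPM.

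Genes near *Cd4* on chromosome 6 were called in part. Of 31 neighbours tested, 4 were higher and 1 lower, against 6.94% and 5.82% of all genes, with a median log2 fold change of 0.16. The higher count was 10 without CD8.1 replicate 1 and 1 without B6 CD4 replicate 1 or 2 or CD8.1 replicate 2. *Lag3*, the neighbouring MHC class II-binding receptor, was at 7.59, 7.93 and 9.27 CPM in B6 CD4 cells and at 9.36, 9.07 and 10.1 CPM in CD8.1 cells and was not called. *Ptms*, a chromatin protein gene next to it, rose from 33.4 to 41.8 CPM to 45.8 to 78.3 CPM.

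Part of the differences between the helper cells was not shared by the cytotoxic cells of the same mice. CD8.2 cells differed from B6 CD8 cells at 1042 genes (7.94%), and the test of the difference between both contrasts called 245 genes (1.87%), or 1356 without CD8.1 replicate 1. Of the genes called between CD8.1 and B6 CD4 cells, 152 that were higher and 24 that were lower were also called in this interaction test, and without CD8.1 replicate 1 these counts were 512 and 428. *Gpr15* rose by 2.92 log2 units in CD8.1 against B6 CD4 cells and fell by 2.65 in CD8.2 against B6 CD8 cells, an interaction of 5.58 (adjusted P = 2.8e-07). For *Ccr2* the log2 fold changes were 2.38 and -2.24, for *Il2rb* 1.35 and -0.58 and for *S100a6* 2.36 and -0.83, each with an adjusted interaction P below 0.05. *Foxp3* changed by 1.87 and 1.96 log2 units in these contrasts and had no detectable interaction (adjusted P = 0.95), although its mean in CD8.2 cells was 1.24 CPM. *Il6ra* (-0.97 and -0.61) and *Oas2* (-1.25 and -1.43) fell in both contrasts, and *H2-Ab1* (0.83 and 1.05) rose in both.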

How the data were processed

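The series holds RNA-seq of 12 LN T cell samples, assigned by their labels to 4 groups of 3. The authors aligned reads to mm10 with STAR and deposited raw counts per gene, which their methods credit to RSEM, as whole numbers without normalization. Tool versions, annotation and strand use are not given in the sources used here. Counts were fitted in edgeR 4.0.16 (R 4.3.3) with filterByExpr, TMM scaling and 1 quasi-likelihood model over all 12 samples, with glmQLFTest for CD8.1 against B6 CD4 and for the interaction with CD8.2 against B6 CD8. On simulated counts without GC or length trends, 100 of 100 genes changed 8-fold and 84 of 100 changed 2-fold were called among 13118. The changed genes had means above 1 CPM, so genes of lower level were not covered. Of the unchanged genes, 8 were falsely called. Positions and biotypes came from GENCODE M21 (GRCm38). The samples compared and the 40 gene lists were chosen with earlier results of these data known. Genes named were fixed markers, up to 4 called and non-overlapping members per list and direction, and up to 10 protein-coding genes per direction with the largest changes at 2 CPM or more. Other members were named after their values were seen. Limits from counts of 0 used 3 counts and cover counting error only. DESeq2 1.42.0 and limma 3.58.1 (voom) were alternatives. Some genes are not reported here.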

Additional observations from a re-analysis of the deposited data

Results flagged for a closer look

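The genes below are those named above whose change from B6 CD4 to CD8.1 cells differed from the change from B6 CD8 to CD8.2 cells at an adjusted P below 0.05 in edgeR's interaction test. Each value is the log2 fold change of CD8.1 over B6 CD4 minus that of CD8.2 over B6 CD8, so a positive value means a higher relative level in the CD8.1 contrast. The genes of the altered co-receptor loci differed between the contrasts, by -6.93 for *Cd4*, 7.31 for *Cd8a* and 2.70 for *Cd8b1*. For genes of the regulatory T cell list the difference was 5.58 for *Gpr15*, 3.93 for *Itgae*, 3.40 for *Tigit*, 2.65 for *Ikzf2*, 2.87 for *Gpr83*, 1.496 for *Entpd1* and 0.921 for *Nt5e*. For homing receptors and integrins it was 4.62 for *Ccr2*, 2.67 for *Cxcr6*, 1.51 for *Cxcr3*, 0.567 for *Cxcr5*, 2.40 for *Itga2*, 0.891 for *Itgb1* and -0.584 for *Itgb3*. For activation, memory, cytokine and cytotoxic genes it was 3.19 for *S100a6*, 0.925 for *Cd44*, 2.95 for *Ly6c2*, -0.692 for *Ly6a*, 1.93 for *Il2rb*, 0.982 for *Cish*, -0.939 for *Cd40lg*, -1.24 for *Lag3*, 3.45 for *Gzmb*, 1.81 for *Nkg7*, 1.58 for *Cst7*, 6.67 for *Klre1* and 5.28 for *Klra1*. For TCR genes it was 3.63 for *Tcrg-C1*, 3.37 for *Tcrg-C2*, 4.30 for *Tcrg-C4*, 1.34 for *Trbv12-1*, 0.954 for *Trbv12-2*, 0.738 for *Trbv14*, 0.986 for *Trbv17*, 0.601 for *Trbv29*, -0.732 for *Trbv20*, -1.20 for *Trbv26*, 1.28 for *Trav16n* and 1.07 for *Trav16*. For the remaining genes it was 1.54 for *Tnfsf14*, 1.45 for *Pmaip1*, -0.97 for *Tgfbr3*, 5.87 for *Tns4*, 3.28 for *Fam129b*, 0.997 for *mt-Nd5*, -1.66 for *Adamts14*, -3.52 for *Gm23935*, -4.08 for *Mir6236* and -4.18 for *Lars2*. *Gpr83* and *Lag3* were not called between CD8.1 and B6 CD4 cells, with log2 fold changes of 0.22 and 0.20. In CD8.2 against B6 CD8 cells they changed by -2.65 and 1.44, so their differences came mainly from that contrast. The 3 CD8.2 samples held 897, 1667 and 6735 CPM of *Lars2*. The causes of these differences were not tested.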

How the results depend on the processing

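Of the called genes chosen by the naming rule, none changed sign under an alternative run, whereas uncalled genes with differences near 0, among them *Zbtb7b*, *Tbx21*, *Nr4a1*, *Cd3e*, *Ccr7* and *Ddx3y*, changed sign when single samples were left out. With the other tools and scalings, the counts of genes higher and lower stayed within 1.5 times, except that without a filter 1178 genes were lower. With only the 6 samples compared in the fit, 412 genes were higher and 262 lower, and 97.5% of these calls were among the calls from all 12 samples. A 2-fold limit left 323 and 85. By the study definition, no filter gave 213 higher and 275 lower and a mean of at least 1 CPM gave 20 and 15. For the interaction, the DESeq2 Wald test gave 410 genes and no filter 620. Leaving out 1 sample at a time gave 429 to 1546 higher and 336 to 1412 lower genes, 66 to 105 higher and 28 to 49 lower by the study definition, and 165 to 1356 for the interaction, with the highest adjusted-P counts without CD8.1 replicate 1. Correction for GC content and length, chosen after seeing the data, gave 1234 higher and 860 lower.

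The labels number replicates in each group. Same-numbered CD8.1 and B6 CD4 samples did not deviate together, with correlations of -0.03, -0.11 and -0.20. Deviations were taken from means of 3 samples per group, so these values cannot decide whether the numbers mark a pairing. Pairing of CD8.1 with CD8.2 samples, or of B6 CD4 with B6 CD8 samples, was not tested. The interaction test treated all samples as independent. A replicate block gave 848 higher and 653 lower genes, a change within 1.5 times, and 10 of 187 named genes lost their call. Single named genes were lost most often without B6 CD4 replicate 1 (53 of 187), CD8.1 replicate 2 (47) or B6 CD4 replicate 2 (46), and 43 of 183 with only 6 samples. The cause was not tested. Depth limits genes near 0.142 CPM, the level of 3 counts in the shallowest B6 CD4 library.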
